A study of Mus musculus with 11 samples.

Results

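The glucocorticoid receptor gene Nr3c1 and 5 genes that glucocorticoids are known to induce, Tsc22d3, Fkbp5, Sgk1, Ddit4 and Zbtb16, were followed in purified mouse spleen T cells. Every probe set whose platform annotation carried exactly 1 gene symbol, and whose symbol was one of these 6, was taken, which gave 18 of the 45037 probe sets tested and 6 of 18193 named genes. Nr3c1 had 6 probe sets, Tsc22d3 had 4, Fkbp5 and Zbtb16 had 3 each, and Sgk1 and Ddit4 had 1 each. The genes had been chosen on activation changes of these arrays, that is on differences between naive and activated cells already in view. Their activation changes are therefore given as a description with no test, and only the genotype comparisons and the interaction were tested.

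The cells came from female mice of 3 to 4 months, either C57BL6 wild type (WT) or C57BL6 crbn-/- (KO), whose deleted gene encodes cereblon, a protein that picks substrates for a ubiquitin ligase. They were purified by negative selection with magnetic beads and were collected either naive, that is unactivated, or after 12 hours with plate-bound anti-CD3 at 5 µg/ml and soluble anti-CD28 at 1 µg/ml, called activated here. The groups held 3 WT naive, 3 KO naive, 2 WT activated and 3 KO activated arrays, each described as a biological replicate. P-values measure the spread between these samples alone. The labels name no glucocorticoid treatment and no group cultured without stimulation, so stimulation and culture cannot be told apart. The labels do not say which part of Crbn was removed or in which tissues. In bulk RNA, fewer cells of a type and less RNA per cell cannot be told apart.

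Glucocorticoids enter the cell and bind the receptor encoded by Nr3c1, which waits in the cytoplasm in a complex with the chaperone Hsp90. The hormone-bound receptor moves to the nucleus, where it binds DNA as a dimer at a pair of inverted hexamers and raises some genes, and dampens others, cytokine genes among them, by acting on other transcription factors. In T cells the hormone restrains activation and can drive death of thymocytes. Corticosterone circulates in the living mouse, and T cells taken from the spleen have been exposed to it.

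The 300 bases around transcription start sites (250 before and 50 after, from RefSeq, build GRCm38.p6) were read for the members, because genes that share a regulator may share its recognition letters. Such windows were at hand for 4 of the 6 genes, 11 windows in all, of which Sgk1 had 6, Tsc22d3 had 3, and Fkbp5 and Ddit4 had 1 each. One window is shown for each gene, 5′ to 3′ on the gene's strand, with hexamers AGAACA on either strand in capitals. The windows shown are those with the most hexamers in their gene.
Sgk1, chr10:21993640-21993939, plus strand: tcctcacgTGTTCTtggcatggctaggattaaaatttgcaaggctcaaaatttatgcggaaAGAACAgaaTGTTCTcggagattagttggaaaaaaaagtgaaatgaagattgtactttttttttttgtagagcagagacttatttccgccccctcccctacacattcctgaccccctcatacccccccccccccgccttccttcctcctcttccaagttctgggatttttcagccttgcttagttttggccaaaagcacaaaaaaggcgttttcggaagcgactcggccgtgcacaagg
Tsc22d3, chrX:140600473-140600772, minus strand: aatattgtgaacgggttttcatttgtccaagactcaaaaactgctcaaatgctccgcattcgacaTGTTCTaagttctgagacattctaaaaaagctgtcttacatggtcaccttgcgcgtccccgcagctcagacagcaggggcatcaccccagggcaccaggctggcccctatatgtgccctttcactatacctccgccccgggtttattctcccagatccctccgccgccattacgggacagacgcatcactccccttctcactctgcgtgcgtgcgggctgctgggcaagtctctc
Fkbp5, chr17:28486100-28486399, minus strand: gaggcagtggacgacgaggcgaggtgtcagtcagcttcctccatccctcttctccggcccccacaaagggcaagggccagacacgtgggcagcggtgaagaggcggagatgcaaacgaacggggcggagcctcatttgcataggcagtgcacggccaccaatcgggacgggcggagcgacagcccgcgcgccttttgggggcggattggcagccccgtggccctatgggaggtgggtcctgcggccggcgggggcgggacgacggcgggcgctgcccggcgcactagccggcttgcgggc
Ddit4, chr10:59951721-59952020, minus strand: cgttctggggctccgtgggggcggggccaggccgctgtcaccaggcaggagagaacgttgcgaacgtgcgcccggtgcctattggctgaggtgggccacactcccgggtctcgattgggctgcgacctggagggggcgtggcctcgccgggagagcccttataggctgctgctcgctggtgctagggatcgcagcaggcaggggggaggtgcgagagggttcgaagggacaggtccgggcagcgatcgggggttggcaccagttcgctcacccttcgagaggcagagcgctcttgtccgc
The hexamer AGAACA, searched on both strands, was in 4 of the 11 windows (3 of Sgk1 and 1 of Tsc22d3), against 19.0% of the 32851 windows of all genes. Its inverted repeat with a 3-base gap, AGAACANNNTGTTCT, was in 3 of all windows (0.00913%), and 1 of these is the Sgk1 window above. There it reads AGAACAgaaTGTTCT and begins 189 bases before the start. The looser form GNACANNNTGTNC was in 0.475% of all windows, and among those of the members in the same Sgk1 window, where it overlaps the longer repeat, which itself holds 2 of the 3 hexamers counted there. The Tsc22d3 window holds 1 hexamer, beginning 185 bases before the start, and the windows of Fkbp5 and Ddit4 hold 0. A match is a run of letters, not a binding site, and its absence concerns these 300 bases alone.

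All values are log2 expression levels as deposited, computed by RMA (robust multi-array average), on which a difference of 1 is a 2-fold change. Within a group, arrays correlated across probe sets, which are not independent replicates, at 0.994 to 0.998, and arrays of different states at 0.950 to 0.964. Crbn, the deleted gene, was lower in the KO by 2.19-fold in naive cells (probe set 1423095_s_at, log2 difference -1.13, limma adjusted p = 9.29e-05) and by 1.87-fold in activated cells (-0.90, limma adjusted p = 0.00381), with no overlap of arrays. Its probe set 1423094_at gave -1.09 in naive (limma adjusted p = 8.51e-05) and -0.91 in activated cells (limma adjusted p = 0.00275). Probe set 1455734_at gave -0.76 in naive cells (limma adjusted p = 0.00245). In activated cells it gave -0.56 and did not pass (limma adjusted p = 0.0691). Some signal from Crbn thus remained in the KO arrays. As a gauge of background, chosen after the values were seen, 9 probe sets of 3 Y-linked genes, which female cells lack, read from 2.54 to 5.66. Their median was 3.22, so the limit used here is the highest of these readings and lies well above most of them. A probe set at or below 5.66 is called within the gauge. The 10 measured of 11 T cell markers were above it in every group, and their summed linear level was 35316 to 40119 in naive and 19792 to 22529 in activated arrays. The 9 measured of 10 B cell markers summed to 13284 to 17900 in naive and 4650 to 7375 in activated arrays, with Pax5 and Ebf1 within the gauge throughout. The part of these shifts in the results below was not tested.

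**Figure D1:**
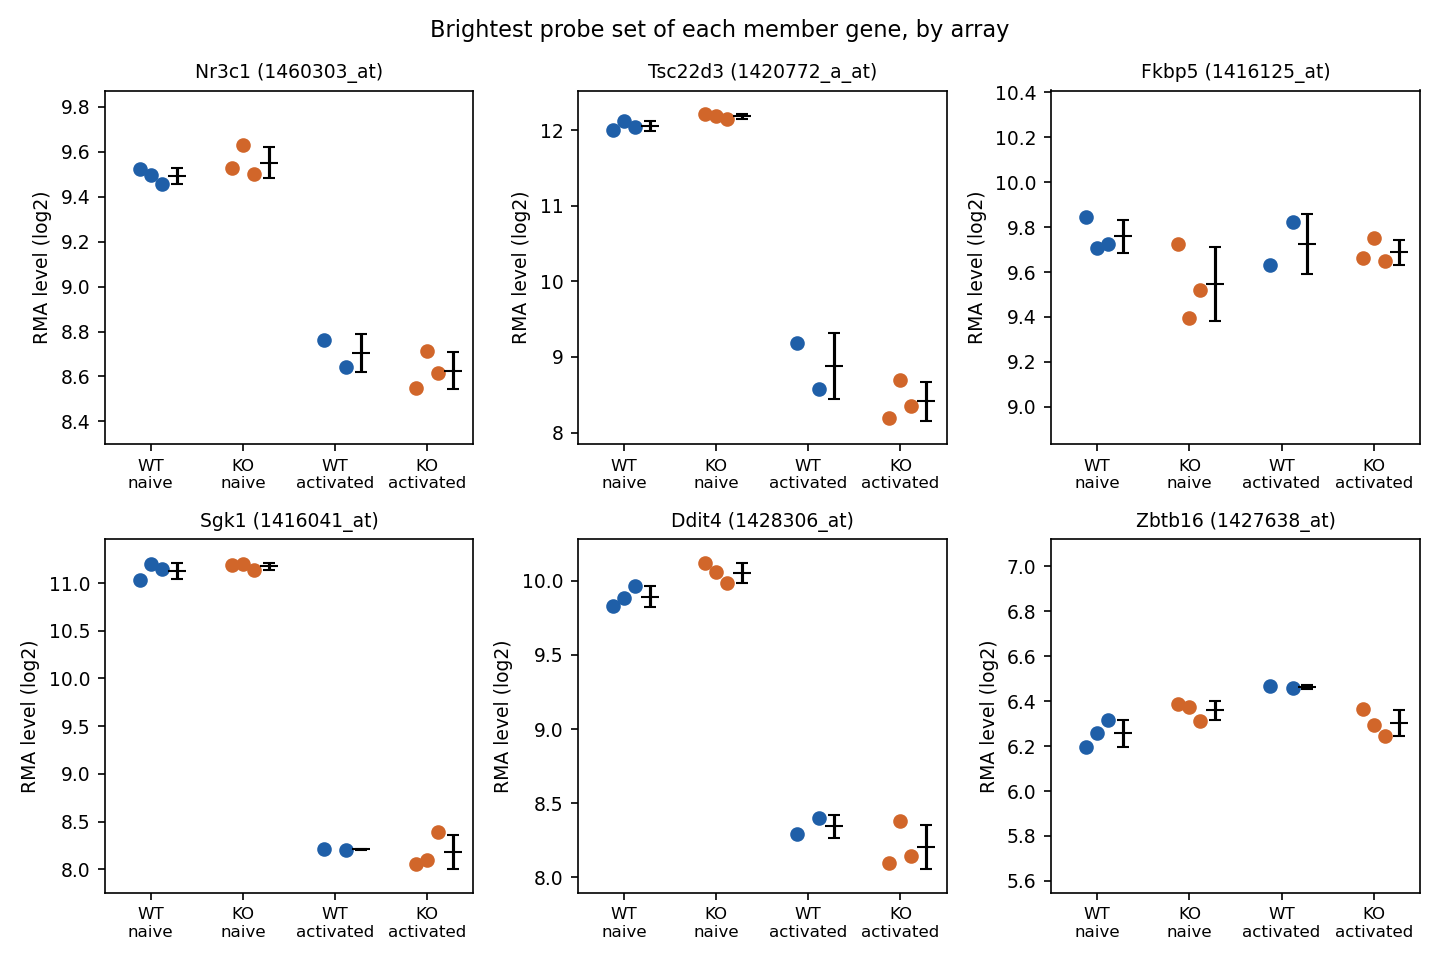
RMA level (log2, vertical axis, a scale of its own in each panel) of the brightest probe set of each gene in the 11 arrays, with points for arrays and bars for the group mean ± SD (n = 3, 3, 2 and 3). Activated arrays lie below naive arrays for Nr3c1, Tsc22d3, Sgk1 and Ddit4, while the activated and naive arrays of Fkbp5 and Zbtb16 overlap or lie close together.

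Nr3c1 encodes the receptor itself and was expressed in every array. Its brightest probe set (1460303_at) read 9.53, 9.49 and 9.46 in WT naive, 9.53, 9.63 and 9.50 in KO naive, 8.76 and 8.64 in WT activated, and 8.55, 8.71 and 8.62 in KO activated arrays. Every activated array lay below every naive array, and the genotypes overlapped within each state. The level was 1.73-fold lower on activation in WT (log2 difference -0.79, SE 0.0818) and 1.90-fold lower in KO cells (-0.93, SE 0.0732). Probe set 1421867_at gave differences of -0.82 and -0.97, and 1457635_s_at gave -0.73 and -0.67, so that the 3 bright probe sets of the gene pointed the same way by 0.67 to 0.97 log2. In 1457635_s_at the 2 WT activated arrays were 8.18 and 7.64, wider apart than the naive arrays, which ran from 8.52 to 8.68. The suffix _s_at marks probes that can match more than 1 transcript, and that value is uncertain to this extent.

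The 3 dim Nr3c1 probe sets differed from the bright ones. Probe sets 1421866_at and 1431378_at lay within the gauge in all 11 arrays, and 1453860_s_at did so in 8 of 11. Their activation differences ran from -0.58 to 0.08 in WT and from -0.50 to -0.05 in KO cells. No level can be read from the first 2, and 1453860_s_at lay only in part above background.

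Tsc22d3 encodes GILZ, a leucine zipper protein that binds and restrains NF-kappaB and AP-1 and is among the best known glucocorticoid-induced genes of lymphocytes. Probe set 1420772_a_at read 12.00, 12.12 and 12.05 in WT naive and 12.21, 12.18 and 12.15 in KO naive arrays. After activation it read 9.19 and 8.58 in WT and 8.20, 8.70 and 8.35 in KO arrays. The naive arrays stood near the top of the range of the whole table, whose highest value was 14.2, and every activated array lay far below every naive array. The difference was -3.17 (SE 0.161, 9.02-fold lower) in WT and -3.76 (SE 0.144, 13.6-fold lower) in KO cells. Of all 18193 genes, 16 had a larger fall in WT and 8 in KO cells. The levels ran in the order KO naive (12.18 ± 0.03, SD, n = 3), WT naive (12.06 ± 0.06, SD, n = 3), WT activated (8.88 ± 0.43, SD, n = 2) and KO activated (8.42 ± 0.26, SD, n = 3). The last pair of groups overlapped.

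A further Tsc22d3 probe set showed the same pattern. Probe set 1425281_a_at read 11.57, 11.63 and 11.62 in WT naive, 11.92, 11.84 and 11.81 in KO naive, 8.08 and 7.74 in WT activated and 7.24, 7.75 and 7.40 in KO activated arrays. The KO arrays were above all WT arrays when naive, while the activated arrays overlapped. The activation difference was -3.70 (SE 0.133, 13.0-fold lower) in WT and -4.39 (SE 0.119, 21.0-fold lower) in KO cells. The other probe sets did not share it: 1425557_x_at, whose suffix marks probes that can match other genes, gave -0.10 in WT and -0.37 in KO cells around a level of 7.55 to 8.15, and 1444365_at lay within the gauge in all arrays.

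Sgk1 encodes a serum- and glucocorticoid-induced kinase of the AGC family, which acts below PI3K and mTORC2 and phosphorylates FOXO proteins and the ubiquitin ligase Nedd4-2. It is the gene whose window above holds the inverted repeat. Its probe set 1416041_at read 11.03, 11.20 and 11.15 in WT naive and 11.19, 11.20 and 11.13 in KO naive arrays. After activation the readings were 8.21 and 8.20 in WT and 8.06, 8.10 and 8.39 in KO arrays. The states did not overlap, and the genotypes overlapped in the naive state and in the activated state. The level was 7.56-fold lower on activation in WT (-2.92, SE 0.0994) and 7.97-fold lower in KO cells (-2.99, SE 0.0889), with 31 and 36 genes showing larger falls.

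Ddit4 encodes REDD1, an inhibitor of mTORC1 that is induced by stress, low oxygen and glucocorticoids. Its probe set 1428306_at read 9.83, 9.88 and 9.97 in WT naive, 10.12, 10.06 and 9.98 in KO naive, 8.29 and 8.40 in WT activated and 8.10, 8.38 and 8.14 in KO activated arrays. All activated arrays were lower than all naive arrays, and the KO naive arrays stood just above the WT naive arrays. The difference was -1.55 (SE 0.0956, 2.92-fold lower) in WT and -1.85 (SE 0.0855, 3.60-fold lower) in KO cells, with 373 and 259 genes showing larger falls.

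Fkbp5 encodes FKBP51, a co-chaperone of Hsp90 that lowers the hormone affinity of the receptor and is itself induced by it. It did not share the differences of the genes above. Its brightest probe set (1416125_at) read 9.84, 9.71 and 9.73 in WT naive, 9.73, 9.40 and 9.52 in KO naive, 9.63 and 9.82 in WT activated and 9.66, 9.75 and 9.65 in KO activated arrays. The ranges of all 4 groups overlapped, and the activation difference was -0.03 in WT (95% interval -0.25 to 0.19) and 0.14 in KO cells (-0.06 to 0.34). These intervals leave room for changes of up to 0.25 log2 downwards and 0.34 log2 upwards, against falls of 1.55 log2 or more in Tsc22d3, Sgk1 and Ddit4.

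The second measured Fkbp5 probe set differed a little from the first. Probe set 1448231_at read 7.36, 7.23 and 7.24 in WT naive, 7.31, 6.98 and 6.98 in KO naive, 7.53 and 7.70 in WT activated and 7.57, 7.59 and 7.52 in KO activated arrays. Every activated array was above every naive array, by 0.34 (SE 0.105) in WT and 0.47 (SE 0.0942) in KO cells. The remaining probe set, 1447736_at, lay within the gauge in all arrays.

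Zbtb16 encodes PLZF, a zinc finger transcription factor that directs innate-like lymphocytes such as NKT cells and that glucocorticoids induce in several cell types. Its 3 probe sets disagreed. The brightest, 1427638_at, read 6.20 to 6.32 in WT naive, 6.31 to 6.39 in KO naive, 6.46 and 6.47 in WT activated and 6.25 to 6.37 in KO activated arrays, with differences of 0.21 and -0.06. Probe set 1419874_x_at carries the suffix of probes that can match other genes. It went from 5.90 to 6.43 in naive arrays to 4.65 to 5.44 in activated arrays. That was a difference of -1.18 (SE 0.152) in WT cells and in KO cells a step from 6.20 ± 0.22 to 5.20 ± 0.21 (SD, n = 3 each). Probe set 1439163_at gave -0.75 and -0.65. In the last 2 the states did not overlap, but the activated values of 1419874_x_at were within the gauge in all 5 arrays, so its difference may understate the change. Those of 1439163_at were within the gauge in 2 WT activated arrays and 1 KO activated array. The 7 measured of 8 markers of NK and innate-like T cells summed to 6925 to 8386 in naive and 5779 to 7047 in activated arrays. The part of this in the Zbtb16 values was not tested.

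Over all members, 11 of 18 probe sets passed the threshold of the whole-table fit in WT activation (10 lower, 1 higher), where 33.9% of all 45037 passed, 17.3% lower and 16.6% higher. In KO activation 12 of 18 passed (11 lower, 1 higher), where 37.5% of all passed, 18.7% lower and 18.8% higher. By brightest probe set 4 of 6 genes were lower in each genotype, beside 20.4% of genes lower in WT and 21.9% in KO activation. The median difference of the 18 probe sets was -0.66 in WT and -0.57 in KO cells, against 0.05 and -0.02 for all probe sets. Because these changes were known when the genes were chosen, nothing is read from the counts.

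**Figure D2:**
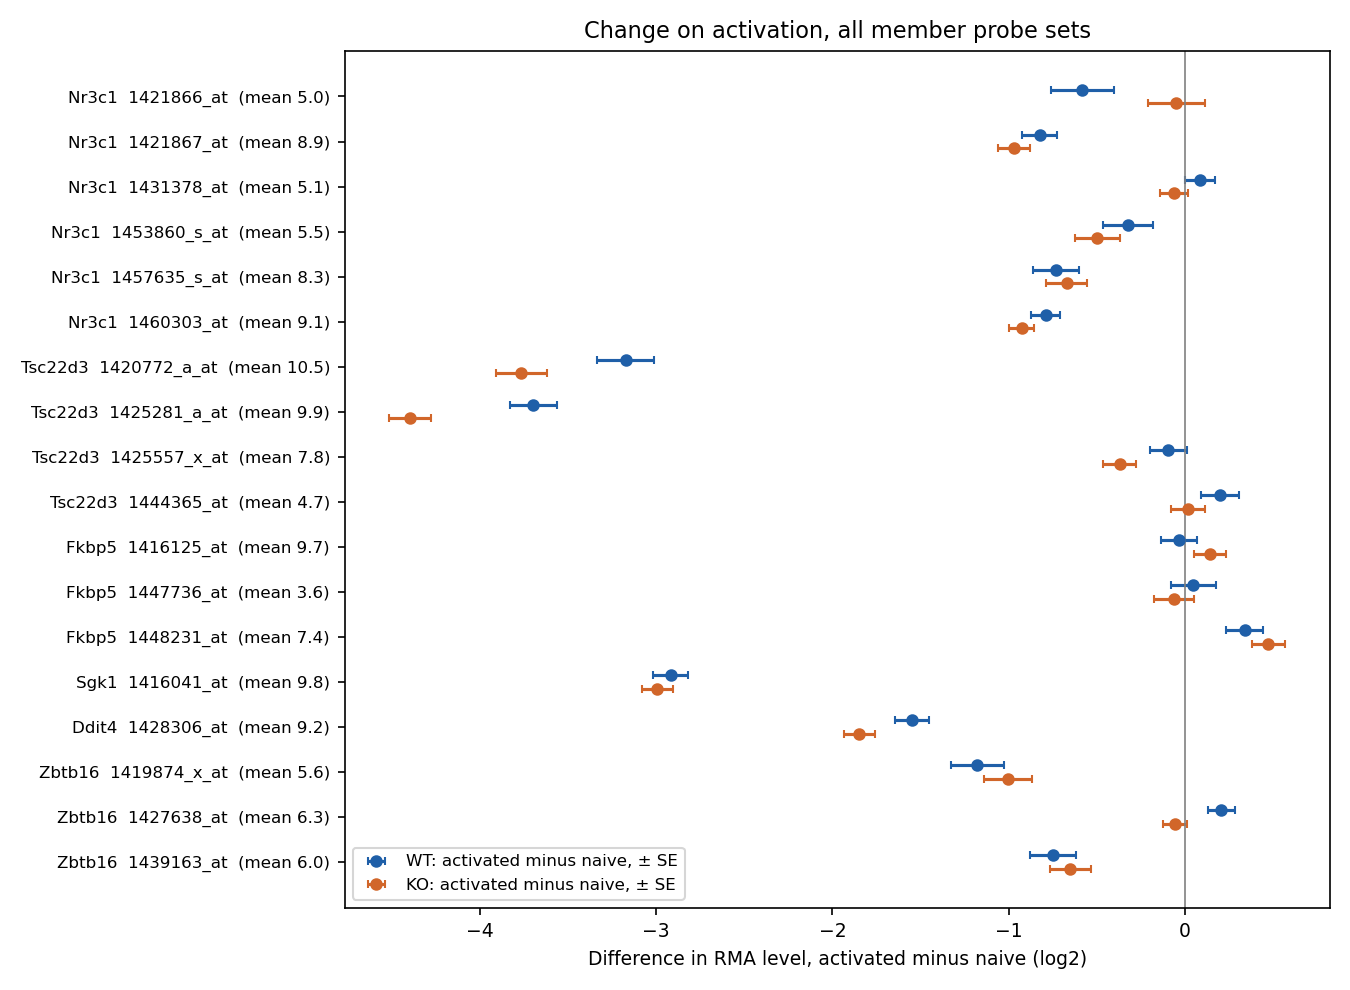
Activated minus naive difference (log2, horizontal axis) of all 18 member probe sets in WT (blue) and KO (orange) cells, with bars for ± SE from the fit of all 11 arrays and the mean level of the probe set in brackets. The 2 bright Tsc22d3 probe sets and Sgk1 lie at -2.92 or below, Ddit4 at -1.55 and -1.85, the 3 bright Nr3c1 probe sets between -0.97 and -0.67, and Fkbp5 near 0 or above it.

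The genotype comparison asked whether loss of cereblon alters these levels in resting or stimulated T cells. In naive cells 0 of the 18 probe sets passed limma's test, where 71 of 45037 (0.158%) did in the whole table, and 3 of the 18 had an unadjusted p under 0.05, beside 14.2% of all probe sets. For the receptor gene the KO minus WT difference in naive cells was 0.06 log2 (95% interval -0.10 to 0.22, limma adjusted p = 0.753), and for Sgk1 it was 0.05 (-0.14 to 0.24, limma adjusted p = 0.845). The arrays of both probe sets overlapped between genotypes, while those of Nr3c1 probe set 1421867_at did not (difference 0.08, -0.12 to 0.27, limma adjusted p = 0.737). For Ddit4 the difference was 0.16 (-0.02 to 0.35, limma adjusted p = 0.420) and for the brightest Zbtb16 probe set it was 0.10 (-0.04 to 0.25, limma adjusted p = 0.523). For Tsc22d3 it was 0.12 by 1420772_a_at (-0.19 to 0.44, limma adjusted p = 0.739) and 0.25 by 1425281_a_at (-0.01 to 0.51, limma adjusted p = 0.364). Probe set 1425557_x_at, whose probes can match other genes, also gave 0.25 (0.04 to 0.45, limma adjusted p = 0.266). The Ddit4 probe set, Nr3c1 probe set 1421867_at and these 3 Tsc22d3 probe sets were the 5 of 18 whose naive arrays did not overlap between genotypes, where 19.2% of all probe sets did not.

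Fkbp5 was the one gene whose brightest probe set read lower in naive KO cells, by a difference of -0.21 (95% interval -0.41 to -0.01, limma adjusted p = 0.324), and 1448231_at gave -0.19 (limma adjusted p = 0.384). The first value was -0.30 without KO naive replicate 1 and -0.14 without KO naive replicate 2. It was -0.034 with the mean of the 3 probe sets of the gene, 1 of which is within the gauge. That dim probe set, 1447736_at, read the other way (0.30, 95% interval 0.06 to 0.55, limma adjusted p = 0.260). In 1416125_at the arrays of the genotypes overlapped, with the first KO naive array at the level of the WT arrays. The summed linear level of the 8 measured of 9 erythroid markers also varied among these arrays. It was 8590, 4235 and 2290 in WT naive and 3183, 1202 and 880 in KO naive arrays, 1 marker (Hba-a1) being within the gauge in every array. In each genotype this sum and Fkbp5 were both highest in replicate 1, while replicates 2 and 3 stood in opposite order. Some other marker sums were also highest in KO naive replicate 1. In the order of replicates, the KO naive arrays gave 1450, 523 and 383 for the 7 neutrophil markers. Macrophage and monocyte markers (8 measured of 9) gave 1448, 926 and 1143, and B cell markers 17900, 14722 and 15877. The macrophage and B cell sums followed the order of Fkbp5 in KO naive arrays. In WT naive arrays they did not, while the neutrophil sum did (619, 502 and 534). The part of these sums in the Fkbp5 difference was not tested.

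In activated cells 0 of the 18 probe sets passed limma's test, where 33 of 45037 (0.0733%) did, and 3 had an unadjusted p under 0.05, beside 8.23% of all. For Tsc22d3 the differences were -0.47 by 1420772_a_at (95% interval -0.82 to -0.12, limma adjusted p = 0.428) and -0.45 by 1425281_a_at (-0.74 to -0.16, limma adjusted p = 0.329). Both depended on which of the 2 WT activated arrays were kept. Without replicate 1 they were -0.16 and -0.28, and without replicate 2 they were -0.77 and -0.62. In 1420772_a_at the lower WT array, at 8.58, lay inside the KO range of 8.20 to 8.70. The arrays did not overlap between genotypes in 4 of 18 probe sets, where 21.5% of all did not. The differences were -0.08 for Nr3c1 (-0.26 to 0.10, limma adjusted p = 0.865), -0.03 for Sgk1 (-0.24 to 0.19, limma adjusted p = 0.975), -0.14 for Ddit4 (-0.35 to 0.07, limma adjusted p = 0.767), -0.04 for Fkbp5 (-0.26 to 0.18, limma adjusted p = 0.962) and -0.16 for the brightest Zbtb16 probe set (-0.32 to 0.0032, limma adjusted p = 0.618). The other Zbtb16 probe sets read higher in KO cells. Probe set 1419874_x_at, within the gauge in activated arrays, gave 0.35 (0.02 to 0.68, limma adjusted p = 0.565). Probe set 1439163_at gave 0.26 (-0.02 to 0.54, limma adjusted p = 0.644). On the mean of both states 0 of 18 passed limma's test, where 98 of 45037 (0.218%) did, and 3 had an unadjusted p under 0.05, beside 8.26% of all. With 2 or 3 arrays in a group the intervals are wide, and values that miss the threshold do not show that the genotypes are alike.

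**Figure D3:**
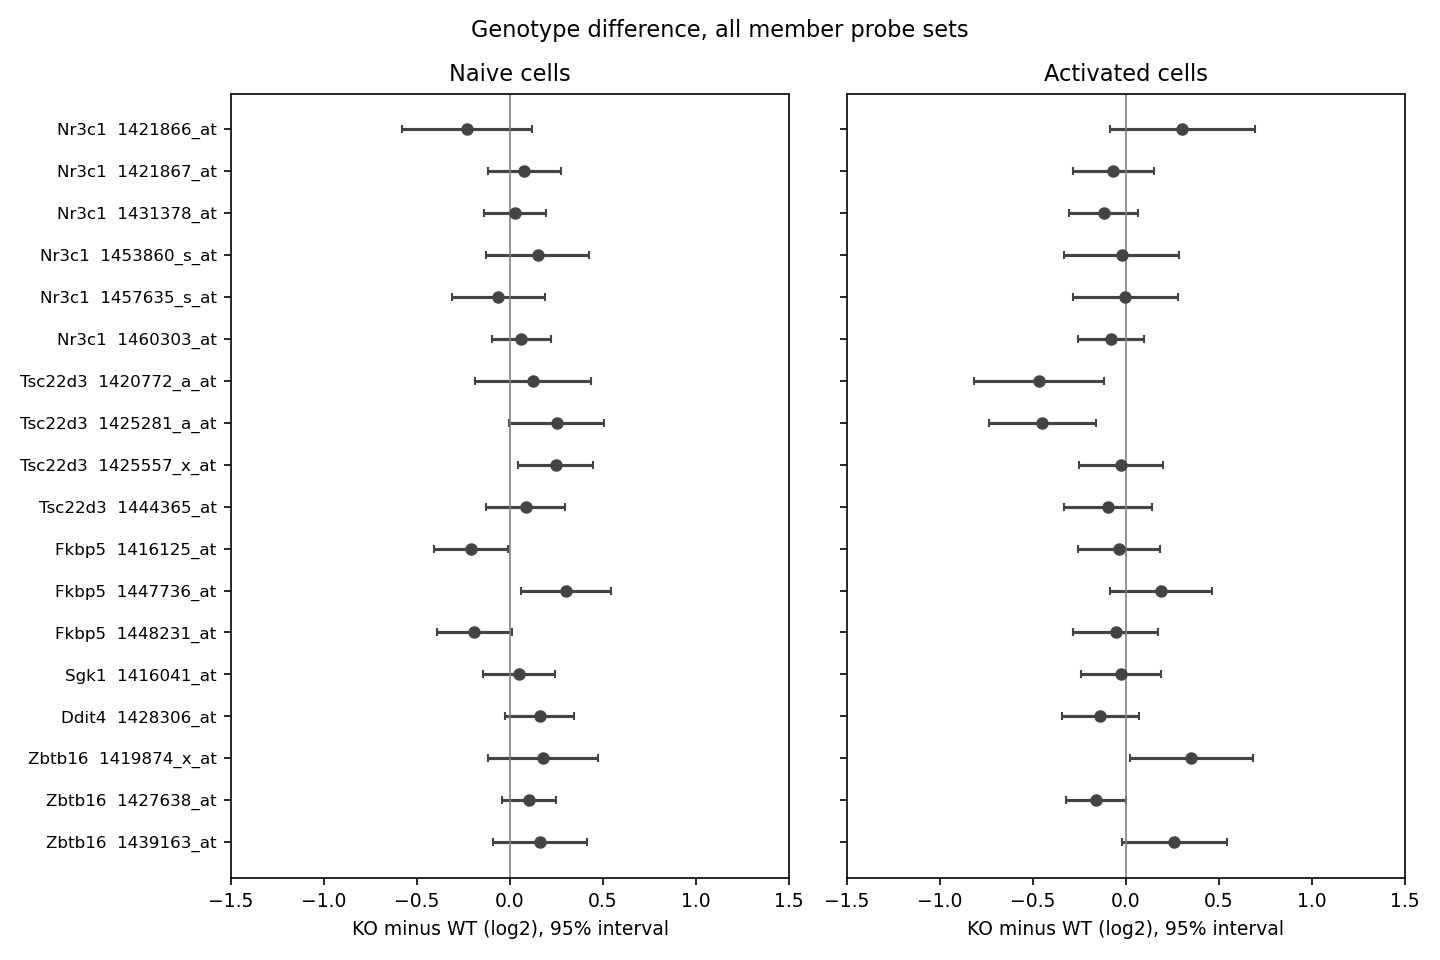
KO minus WT difference (log2, horizontal axis) of the 18 member probe sets in naive (left) and activated cells (right), with points for the estimate and bars for its 95% interval from the fit of all 11 arrays. No probe set passed the threshold in either state, and the Tsc22d3 probe sets 1420772_a_at and 1425281_a_at lie to the right of 0 in naive and to the left in activated cells.

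The interaction asked whether activation changed the genes by a different amount in KO cells. Of the 18 probe sets 0 passed limma's test and 5 had an unadjusted p under 0.05, where over all probe sets 0 of 45037 (0%) passed and 14.0% had such a p. The smallest adjusted p of the members belonged to Tsc22d3 (1425281_a_at), whose KO activation difference minus that of WT was -0.70 log2 (SE 0.178, 95% interval -1.08 to -0.31, limma adjusted p = 0.204). Its probe set 1420772_a_at gave -0.59 (-1.06 to -0.12, limma adjusted p = 0.281). That value rested on both WT activated arrays, since it was -0.28 without replicate 1 and -0.90 without replicate 2. Ddit4 gave -0.30 (-0.58 to -0.02, limma adjusted p = 0.330), the brightest Zbtb16 probe set -0.26 (-0.48 to -0.04, limma adjusted p = 0.299), Sgk1 -0.08 (-0.36 to 0.21, limma adjusted p = 0.823) and Nr3c1 -0.14 (-0.38 to 0.10, limma adjusted p = 0.582). Values above 0 were 0.17 for Fkbp5 (-0.12 to 0.47, limma adjusted p = 0.583), and 0.18 and 0.10 for Zbtb16 probe sets 1419874_x_at and 1439163_at. The dim Nr3c1 probe set 1421866_at, within the gauge, gave 0.53 (0.01 to 1.06, limma adjusted p = 0.352). A difference between the genotypes in the response of these genes was therefore not shown.

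The chaperones that fold and hold the receptor were mostly higher in activated cells. Of 11 measured genes of the list 9 rose and 1 fell in WT (median difference 0.47), and 10 rose and 1 fell in KO cells (median 0.64), where 39.6% of all genes changed in WT (19.2% up, 20.4% down) and 42.1% in KO cells (20.3% up, 21.9% down). The medians of all genes were 0.06 and -0.03. Fkbp4, which encodes FKBP52, the co-chaperone that competes with FKBP51 for the receptor, rose by 1.31 in WT and 1.66 in KO cells. Stip1, the adaptor between Hsp70 and Hsp90, rose by 1.20 and 1.68, Hspa4, a nucleotide exchange factor for Hsp70, by 1.14 and 1.34, and Ahsa1, an activator of the Hsp90 ATPase, by 0.88 and 1.10. In naive cells Fkbp4 read 9.44, 8.91 and 9.11 in WT and 8.92, 8.84 and 8.56 in KO arrays, and the genotypes overlapped. In the naive genotype comparison 0 of the 11 passed limma's test, where 0.148% of all genes did. Of the 11, 7 had an unadjusted p under 0.05, beside 14.1% of all genes. The median difference of the 11 was -0.24, beside the erythroid marker levels given above, whose part in this was not tested.

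The coregulators that the bound receptor recruits were divided, with 5 of 12 higher and 5 lower in each genotype. Of all genes, 19.2% were higher and 20.4% lower in WT, and 20.3% and 21.9% in KO cells. The acetyltransferase genes Ep300 and Crebbp fell, by differences of -0.95 and -0.75 in WT and -0.75 and -0.71 in KO cells. Ncoa1, a steroid receptor coactivator, fell as well (-1.25 and -1.11), and Carm1, an arginine methyltransferase, rose by 0.97 and 1.07. Of the 10 genes that activate, inactivate, make or export corticosteroids, 3 rose and 3 fell in WT, and 2 rose and 3 fell in KO cells. The shares of all genes are those just given. Hsd11b1, which regenerates the active hormone inside cells, read 10.70 to 10.81 in WT naive and 10.81 to 10.96 in KO naive arrays. After activation it read 8.68 and 8.78 in WT and 7.91 to 8.48 in KO arrays, differences of -2.03 and -2.68. The 2 multidrug transporter genes that can export glucocorticoids moved oppositely, Abcb1b by 1.46 and 1.75 and Abcb1a by -0.80 and -1.31. Cyp11a1, which starts steroid synthesis from cholesterol, rose by 1.55 and 1.35 from naive readings of 5.19 to 5.65, which were within the gauge.

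Of 18 further genes reported as induced by glucocorticoids in lymphoid or other cells, 4 rose and 10 fell in WT (median -0.66), and 3 rose and 9 fell in KO cells (median -0.39). Beside these, 19.2% of all genes rose and 20.4% fell in WT, and 20.3% rose and 21.9% fell in KO cells. The falls included Dusp1, a MAP kinase phosphatase (-4.61 in WT and -4.76 in KO cells), the chemokine receptor Cxcr4 (-3.51 and -3.70), the thioredoxin inhibitor Txnip (-2.80 and -2.98) and the interleukin-7 receptor Il7r (-2.52 and -3.00). Genes of this list answer to many other signals. Of 9 cytokine genes that glucocorticoids repress, 9 rose in WT (median 2.05) and 8 in KO cells (median 1.95), and 0 fell, beside the same shares of all genes. Il2 rose by 4.65 in WT and 5.47 in KO cells, Ifng by 3.75 and 4.22, Il4 by 2.50 and 2.96 and Csf2 by 2.20 and 2.87. The cytokine genes, too, answer to other signals, stimulation of the T cell among them. Both lists were chosen with earlier results of these data known, so nothing about glucocorticoid action is read from these counts. In the genotype comparisons and the interaction, 0 genes of the 7 lists passed limma's test, where 0.148% of all genes did in naive cells, 0.0605% in activated cells and 0% in the interaction. The 7 lists held 0 to 7 genes each with an unadjusted p under 0.05 in naive cells, 0 to 4 in activated cells and 0 to 4 in the interaction. Over all genes the shares with such a p were 14.1%, 6.63% and 13.5%.

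**Figure D4:**
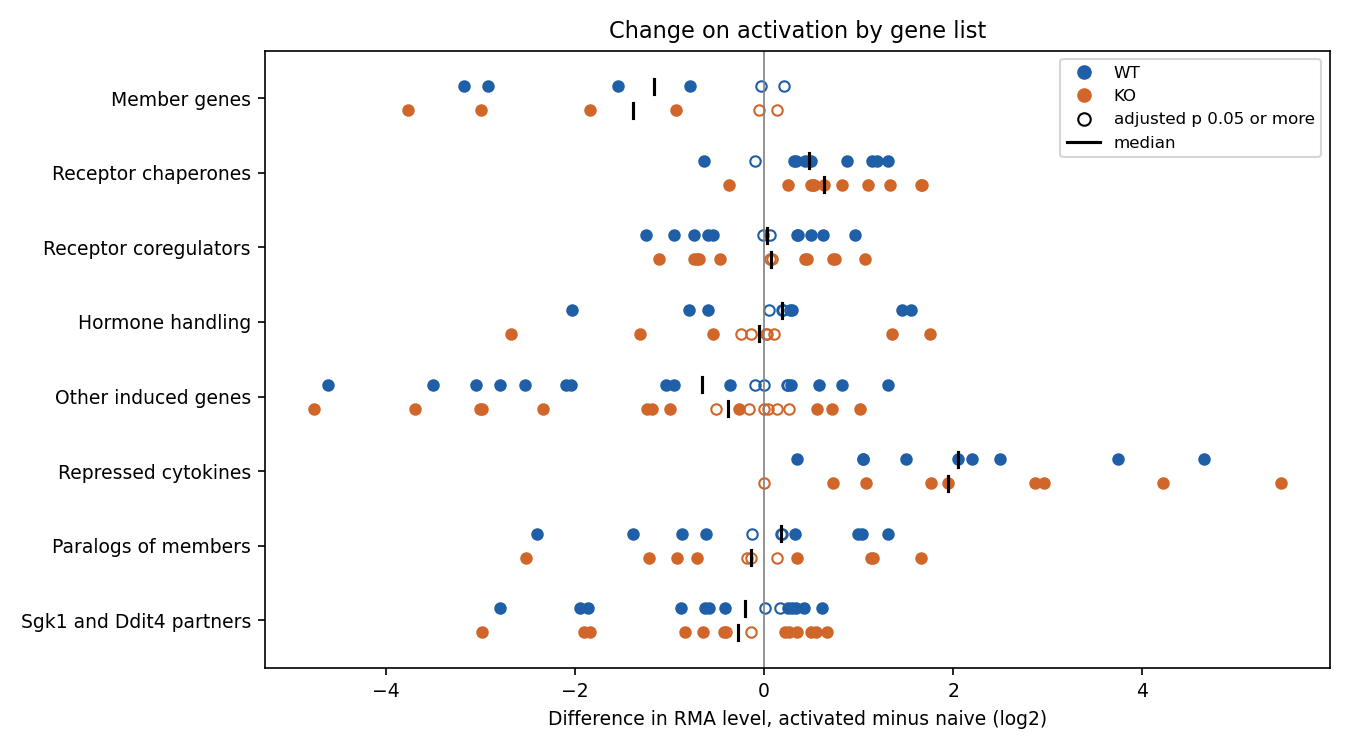
Activated minus naive difference (log2, horizontal axis) of the member genes and of 7 gene lists, with 1 point per measured gene (brightest probe set), filled where limma's adjusted p was under 0.05, in WT (blue) and KO (orange) cells, and bars for medians. The chaperones and the cytokines lie mostly to the right of 0, with medians of 0.47 and 2.05 in WT cells. For the member genes, which were chosen on such changes, the filling is a description and not a test.

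The paralogs of the members did not move as one, with 4 of 11 higher and 4 lower in each genotype. Of all genes, 19.2% were higher and 20.4% lower in WT, and 20.3% and 21.9% in KO cells. Tsc22d1, a TSC22 family gene like Tsc22d3, also fell (-2.40 in WT and -2.52 in KO cells), and so did Sgk3, a kinase related to Sgk1 (-1.39 and -1.21). Fkbp4 rose, as given above, where Fkbp5 had no fall, and Zbtb32, a zinc finger gene of the BTB family like Zbtb16, rose by 1.03 and 1.14. Among 14 partners of Sgk1 and Ddit4 in the PI3K, FOXO and mTOR pathways 5 rose and 7 fell in WT, and 6 rose and 6 fell in KO cells. The shares of all genes are those given for the paralogs. The FOXO genes Foxo1 and Foxo3, whose products Sgk1 phosphorylates, fell (-1.87 and -0.87 in WT, -1.84 and -0.83 in KO cells), and Nedd4l, which encodes Nedd4-2, fell by differences of -1.94 and -1.91.

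The genes most like each member over the 11 arrays were found by the root mean square difference between profiles, each centred on its own mean. For Tsc22d3 they were S1pr1 (0.138 log2), the sphingosine phosphate receptor by which T cells leave lymphoid organs, Acp5 (0.170) and Klf2 (0.178), the transcription factor of quiescent T cells. Only 6 genes lay within 0.25 log2 of Tsc22d3. For Sgk1 they were St8sia6 (0.123), Txnip (0.142) and Il6ra (0.146), among 32 genes within 0.25, and the distance between Sgk1 and Tsc22d3 was 0.367. For Ddit4 they were Pstpip1 (0.0588), Rassf2 (0.0646) and Klk8 (0.0723), among 398 such genes. Nr3c1 had 1959 such genes, led by Arid4b (0.0248), Cd3g (0.0506) and Wdr81 (0.0545), Cd3g being a chain of the T cell receptor complex and a member of the T cell marker list. The brightest probe sets of Fkbp5 and Zbtb16, the latter at odds with the other 2 of its gene, were nearly flat and lay within 0.25 log2 of 11866 and 12381 genes. Their nearest were Ube2s (0.0596), Lmnb1 (0.0603) and Prcc (0.0611), and Spp2 (0.0362), Has1 (0.0412) and Myh7b (0.0414). All of these distances are taken over the same 11 arrays.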

How the data were processed

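Total RNA (100 ng per sample) of purified spleen T cells was amplified, labelled with biotin and read on Affymetrix mouse arrays, 1 colour and 1 array per sample. Per the submitters' processing notes the arrays were handled with GCOS, RMA and Partek, with no versions stated. The authors deposited log2 expression values, which were used unchanged. They ranged from 2.32 to 14.2, with column medians of 5.84 to 5.89. Quantile steps inside RMA force arrays to like distributions, so a shift of all RNA cannot be seen, and low values are compressed. The number of arrays limits the precision.

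Of 45101 probe sets 64 controls were left out. Symbols came from the platform annotation, and 34945 probe sets had 1 symbol, 932 several and 9160 none. Group means were fitted with limma 3.58.1 in R 4.3.3 to all 11 arrays, with p-values adjusted by Benjamini-Hochberg over 45037 probe sets and called at an adjusted p under 0.05. The probe set with the highest mean stood for its gene. Simulated data with 200 changed probe sets were used to test the fit. Sequences are those of RefSeq.

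The members and gene lists were chosen with earlier results of these data known. Named were all member probe sets, Crbn, up to 4 genes of each list with the largest activation difference among those called, and the 3 genes nearest to each member. Lists are described by counts and medians, without a set test. Alternatives were 1 or the mean of the probe sets per gene, a filter on low values, a variance trend with a robust prior, only the compared arrays, array weights, quantile normalization again, median centring, replicate blocks and leaving out each array. The labels do not say that same-numbered arrays of different groups share an animal or a day, so the numbers were not taken as pairs. Such arrays deviated together in 7 of 15 pairs (correlation over 0.1, range -0.30 to 0.39), which does not settle whether they are paired. Figures were drawn with Python 3.11.15 and matplotlib 3.10.9.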

Additional observations from a re-analysis of the deposited data

How the results depend on the processing

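No genotype or interaction call was gained under any alternative run, neither for the 6 genes nor for the 18 probe sets, and limma's adjusted p stayed above 0.05 throughout. The counts of member genes past the threshold in activation were 4 to 5 in WT and 4 to 6 in KO cells over the alternatives, beside 4 and 4. These activation counts are a description, since the genes were chosen on such changes. With the replicate number as a block, the pairing left the counts of member genes past the threshold at 0 in the genotype and interaction comparisons and at 4 in each activation comparison, and the Sgk1 difference on the mean of both states became -0.0046 from 0.011. Among the genotype and interaction differences, none of which passed, 21 alternative values turned direction. With the mean of all probe sets of a gene, the KO minus WT difference in activated cells became 0.0019 for Nr3c1, 0.032 for Fkbp5 and 0.15 for Zbtb16, that on the mean of both states became 0.0028 for Nr3c1 and 0.15 for Zbtb16, and the Zbtb16 interaction became 0.0041. After quantile normalization again the mean of both states was 0.00076 for Nr3c1 and -0.0060 for Sgk1. Leaving out 1 array gave, in activated cells, -0.13 to 0.056 for Fkbp5 and -0.13 to 0.036 for Sgk1. For the mean of both states it gave -0.039 to 0.021 for Nr3c1, -0.041 to 0.042 for Sgk1 and -0.032 to 0.038 for Ddit4. The Tsc22d3 activation difference in WT cells ran from -3.48 to -2.87 when 1 array was left out, and was -1.69 with the mean of its probe sets, 2 of which did not share the fall. Also 2 activation differences that were not called turned. Zbtb16 in WT cells went from 0.21 to -0.57 with that mean (KO -0.06 to -0.57), and Fkbp5 in WT cells went from -0.03 to 0.12 with that mean and to -0.13 to 0.06 when 1 array was left out. The mean of the probe sets takes in probe sets that read the other way from the brightest. For KO minus WT in activated cells these gave 0.35 (1419874_x_at) and 0.26 (1439163_at) for Zbtb16. They gave 0.19 for Fkbp5 (1447736_at) and 0.30 for Nr3c1 (1421866_at). All but 1439163_at lay within the gauge in every activated array. The causes of turned directions under the other alternatives were not tested. Signal over background limits Zbtb16 and the dim Nr3c1, Tsc22d3 and Fkbp5 probe sets, and 2 WT activated arrays limit every value of that group.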

Other observations

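The metallothionein genes Mt1 and Mt2, which encode metal-binding proteins and were on the list of further glucocorticoid-induced genes, spread widely among naive arrays. They are named here after their values were seen. Mt1 read 10.42, 9.63 and 8.97 in WT naive, 8.99, 7.37 and 7.34 in KO naive, 6.15 and 7.10 in WT activated and 6.96, 6.80 and 6.39 in KO activated arrays. Mt2 read 10.47, 9.17 and 8.84 in WT naive, 8.60, 7.99 and 7.73 in KO naive, 7.44 and 7.46 in WT activated and 7.70, 7.53 and 7.57 in KO activated arrays. The KO minus WT difference in naive cells was -1.78 for Mt1 (limma adjusted p = 0.128) and -1.38 for Mt2 (limma adjusted p = 0.120), neither past the threshold. The first WT naive array was highest in both genes and also in the summed level of erythroid markers (8590), and the part of the latter was not tested.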
